A study of Mus musculus with 5 samples.

Results

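The mitosis and kinetochore genes are 44 genes chosen by symbol that carry a cell from mitotic entry to cytokinesis, and all 44 were among the 23441 gene rows of the count table. The 5 libraries sampled poly(A) RNA of the mandibular tissue of mice at embryonic day 10.5. In the control group, 3 libraries had the genotype Yapf/f, Tazf/f, that is, floxed alleles of Yap and Taz with no Cre named, on a 129SvEv background. The 2 dCKO libraries had the genotype Wnt1Cre; Yapf/f, Tazf/f on a C57BL/6J x CBA/J; 129SvEv background, so that strain background and Cre genotype cannot be told apart. Both groups carried the floxed alleles. Wnt1Cre is a driver of the premigratory neural crest, so the epithelium, arch mesoderm, endothelium and blood of the tissue are not its targets. The labels do not say that libraries came from separate embryos, and p-values therefore measure the spread between these libraries, which may be technical.

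Mitosis begins when cyclin B and Cdk1 are activated by Cdc25 phosphatases. Condensin and topoisomerase II then compact the chromosomes, kinetochores bind the spindle, and the spindle checkpoint holds back the anaphase-promoting complex until every chromosome is attached. Transcripts of these genes accumulate in G2 and M and are low in resting cells, so that in bulk tissue they are widely used as a readout of how many cells are dividing. The coactivators Yap and Taz, which act with TEAD factors, are known for promoting proliferation in many tissues, and whether mitotic transcripts differ in mandibular tissue without them in the crest is the question addressed here.

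Mitotic promoters are known for 2 short elements. One is the CHR, read by the MuvB complexes, and searched here as TTTGAA or TTCGAA. The other is the CCAAT box, read by NF-Y. Promoter windows from RefSeq (GRCm38.p6), running from 250 bases before to 50 after the start, were given for 36 of the 44 genes, as 39 windows. Both strands were searched. A CHR word stood in 31 of 39 windows (79.5%, 95% Wilson interval 64.5 to 89.2%), against 19.2% of all 32851 windows. CCAAT stood in 30 of 39 (76.9%, 61.7 to 87.4%), against 37.4% of all windows. Both stood in 28 of 39 (71.8%), against 7.52% of all windows. In the shorter window from 100 bases before the start, the shares were 71.8% for the CHR and 64.1% for CCAAT, against 8.59% and 23.4% of all windows. E2F-type words (TTCCCGC or TTCGCGC or TTTCGCGC or TTTGGCGC or TTTGGCGG or TTTCCCGC, of which some contain others) stood in 3 of 39 windows (7.69%), against 6.83% of all.

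Stretches of 4 of these promoters are printed because they belong to the pair of genes called in the comparison (Cdc25b and Mki67), to the kinase at the centre of mitotic entry (Cdk1) and to the checkpoint gene nearest to the threshold on the lower side (Bub1). Each runs 5′ to 3′ on the gene's own strand from 150 bases before to 30 after the RefSeq start, with CHR words and CCAAT boxes (ATTGG on the other strand) in capitals. In GRCm38.p6 they lie at chr2:131186798-131186977 on the plus strand (Cdc25b), and on the minus strand at chr7:135716350-135716529 (Mki67), chr10:69352883-69353062 (Cdk1) and chr2:127831830-127832009 (Bub1).
Cdc25b: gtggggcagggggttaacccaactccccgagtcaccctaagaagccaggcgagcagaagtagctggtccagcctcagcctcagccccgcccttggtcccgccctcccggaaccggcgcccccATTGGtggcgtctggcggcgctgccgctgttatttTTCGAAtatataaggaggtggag
Mki67: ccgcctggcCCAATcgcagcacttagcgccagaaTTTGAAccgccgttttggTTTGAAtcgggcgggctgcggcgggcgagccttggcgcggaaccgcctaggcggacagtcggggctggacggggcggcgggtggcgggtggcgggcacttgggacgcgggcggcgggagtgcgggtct
Cdk1: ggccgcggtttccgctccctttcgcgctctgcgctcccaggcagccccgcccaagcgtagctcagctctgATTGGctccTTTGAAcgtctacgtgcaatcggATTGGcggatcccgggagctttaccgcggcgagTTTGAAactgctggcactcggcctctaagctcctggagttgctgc
Bub1: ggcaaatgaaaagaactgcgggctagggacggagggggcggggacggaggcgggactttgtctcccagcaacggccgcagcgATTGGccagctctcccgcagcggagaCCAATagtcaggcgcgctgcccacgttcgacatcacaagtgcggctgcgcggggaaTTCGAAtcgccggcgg
All 4 stretches hold both kinds of element, so the pair of called genes and the pair that did not pass could not be sorted by these words.

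Library totals ran from 6491137 to 13298973 counts, with both dCKO libraries deeper than any control. Levels are given in CPM, counts scaled to a library's total after TMM adjustment. Yap1 measured 312, 475 and 512 CPM in control replicates 1, 2 and 3, and 175 and 170 CPM in dCKO replicates 1 and 2. Wwtr1, the symbol of Taz, measured 38.4, 65.1 and 66.2 CPM in the controls and 22.7 and 22.8 CPM in dCKO tissue, so for both targets every dCKO library lay below every control. The tissue carried markers of mandibular crest mesenchyme in all libraries, with the 12 listed genes summing to 2511 to 2683 CPM in control and 2321 to 2475 CPM in dCKO. Blood content differed between the groups. The 14 erythroid markers summed to 3431 to 4445 CPM in control and 55972 to 80223 CPM in dCKO, and all 12 that could be tested were higher. The adult globins Hba-a1 and Hba-a2 had 0 counts in every library. This does not show that their RNA was absent, since how reads matching several genes were counted is not given. Of 10 megakaryocyte and platelet markers, 8 were tested and 8 were higher (14.5 to 25.3 CPM summed in control, 135 to 265 CPM in dCKO). The part of blood cells in the values of the mitotic genes was not tested. When the scaling factors were computed without the erythroid markers, the calls among the 44 were the same 2. Of other cell types, 3 of 12 epithelial, 2 of 10 endothelial, 1 of 7 myeloid, 1 of 6 neural and 0 of 8 arch mesoderm markers tested were called higher. Each of these lists nevertheless summed higher in both dCKO libraries than in every control. Epithelial markers summed to 435 to 545 CPM in control and 642 to 668 CPM in dCKO. Arch mesoderm markers summed to 88.8 to 102 CPM in control and 115 to 134 CPM in dCKO (median log2 fold change 0.72). The part of these cells in the mitotic values was not tested either. In crest mesenchyme 1 marker was called higher (Alx4) and 3 lower (Prrx1, Dlx5 and Dlx6). Of all tested genes, 5.0% were higher and 1.42% lower. In bulk tissue, fewer cells of a type and less RNA per cell cannot be told apart.

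In summed CPM, the mitotic transcripts as a set stood at nearly the same level in dCKO and control tissue. Their summed level was 9166, 9097 and 8311 CPM in control replicates 1, 2 and 3 and 8200 and 8946 CPM in dCKO replicates 1 and 2. The groups overlapped, and the ratio of the group means was 0.968. Abundant genes weigh most in such a sum, and Mki67 made up 5.02 to 5.91% of it in control and 7.37 to 9.21% in dCKO. All 44 genes passed the filter on low counts, with 248 to 11245 counts per gene and library. By edgeR's quasi-likelihood test with Benjamini-Hochberg adjustment over all 12710 tested genes, 2 of the 44 passed at an adjusted p below 0.05, against 6.42% of all genes. Both were higher in dCKO (Cdc25b and Mki67), against 5.0% of all genes. None was called lower: 0 of 44, against 1.42% of all genes. At an unadjusted p below 0.05, 9 members were lower and 3 higher, against 9.65% and 11.9% of all genes. DESeq2 called 1 member lower (Bub1, against 1.86% of all genes) and limma-voom 2 (Bub1 and Pttg1, against 1.6%), and both tools called Cdc25b and Mki67 higher, against 4.68% of all genes by DESeq2 and 5.26% by limma-voom.

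The median log2 fold change of the 44 was −0.12, beside −0.00062 over all tested genes, and 30 of the 44 had a negative value, 68.2% beside 50.1% of all genes. Members were well measured. The standard error of their log2 fold change had a median of 0.13, beside 0.16 over all genes. The 95% interval lay inside 1.5-fold in both directions for 34 of the 44, where 51.3% of all genes met that bound, which was chosen after the data had been seen. Among the 42 that did not pass, the intervals ran as low as −1.24 (Pttg1) and as high as 0.60 (Espl1). A change within these intervals is not excluded for any of them. Control and dCKO libraries did not overlap for 14 members, 10 lower and 4 higher in dCKO, against 37.6% of all genes in either direction (18.6% lower, 19.0% higher).

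**Figure D1:**
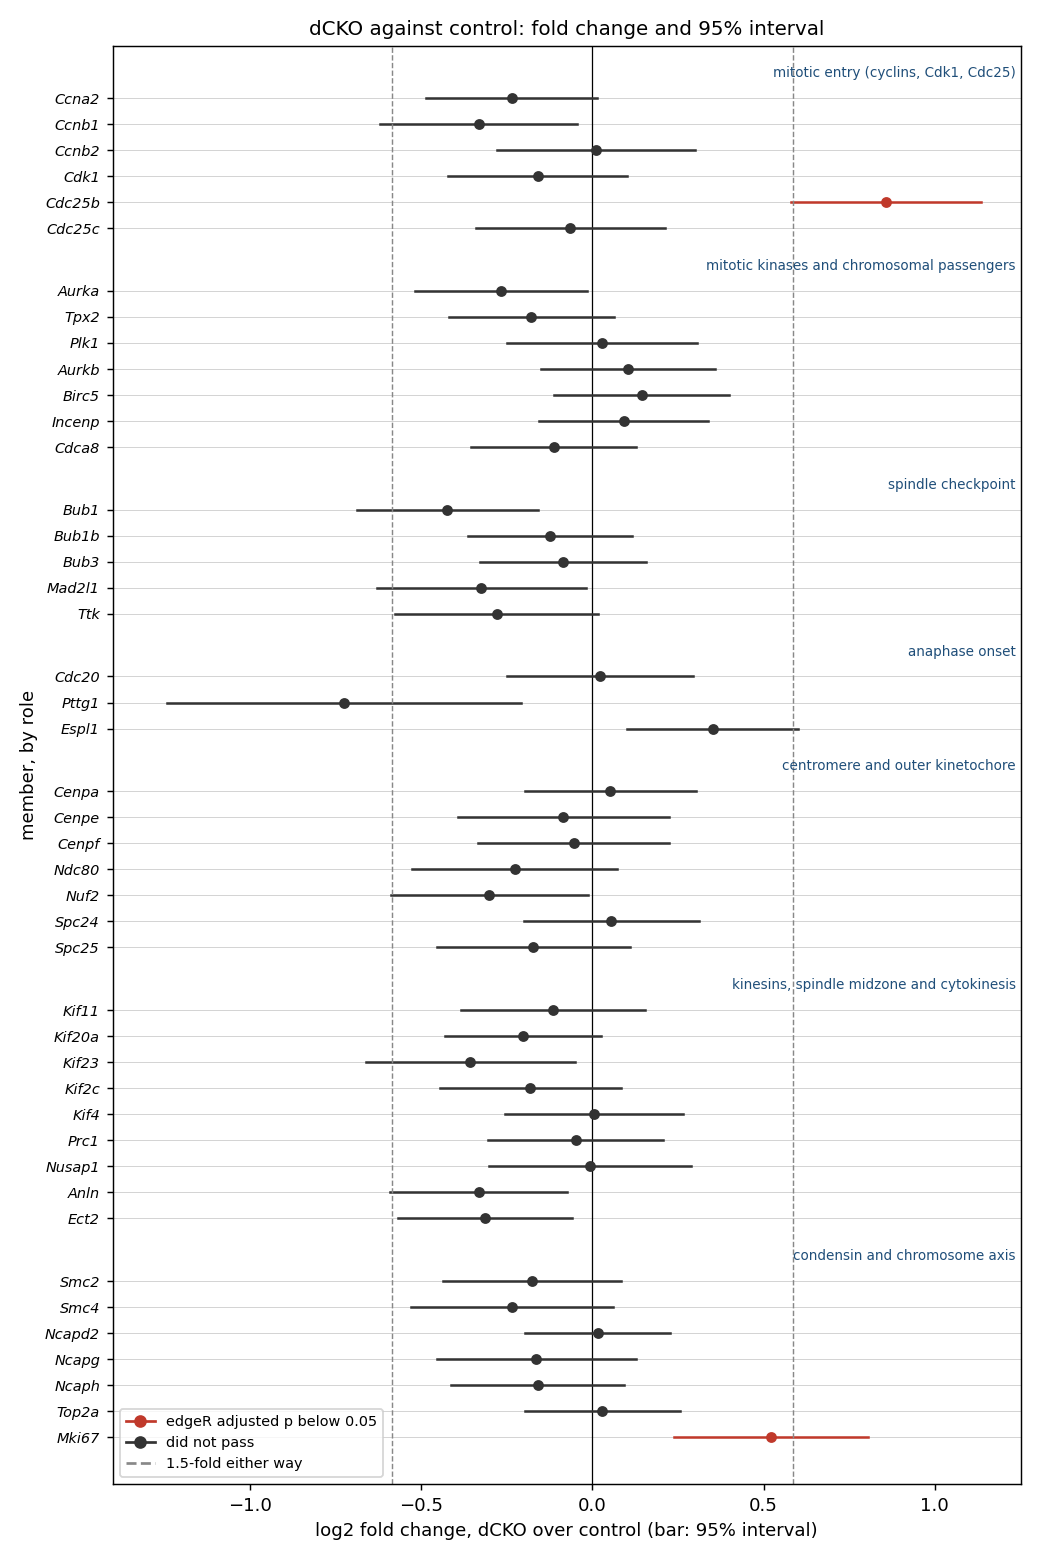
Log2 fold change of dCKO over control (x axis) for the 44 genes, grouped by role (y axis), with bars for the 95% interval of edgeR's quasi-likelihood fit over 3 control and 2 dCKO libraries. Red marks Cdc25b and Mki67, which passed at an adjusted p below 0.05, dashed lines mark 1.5-fold, and 34 of the 44 intervals lie between them.

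Members also varied between libraries of one group. Control replicate 3 gave the lowest control value in 29 of the 44 genes, where 37.6% of all tested genes had their lowest control value there. Its median log2 deviation from the control mean was −0.11, that of dCKO replicates 1 and 2 was −0.17 and −0.085, and control replicates 1 and 2 stood at 0.043 and 0.031. In 28 of the 44, dCKO replicate 1 was below dCKO replicate 2, beside 49.5% of all genes. Control replicate 3 decided the count of lower members. Without it, 7 were called lower (Ccnb1, Bub1, Mad2l1, Nuf2, Kif23, Anln and Smc4), against 5.33% of all genes then tested, and Cdc25b and Espl1 were called higher, against 7.37%. The median log2 fold change was then −0.19. With any other library left out, at most 1 member was called lower, and that was Pttg1.

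**Figure D2:**
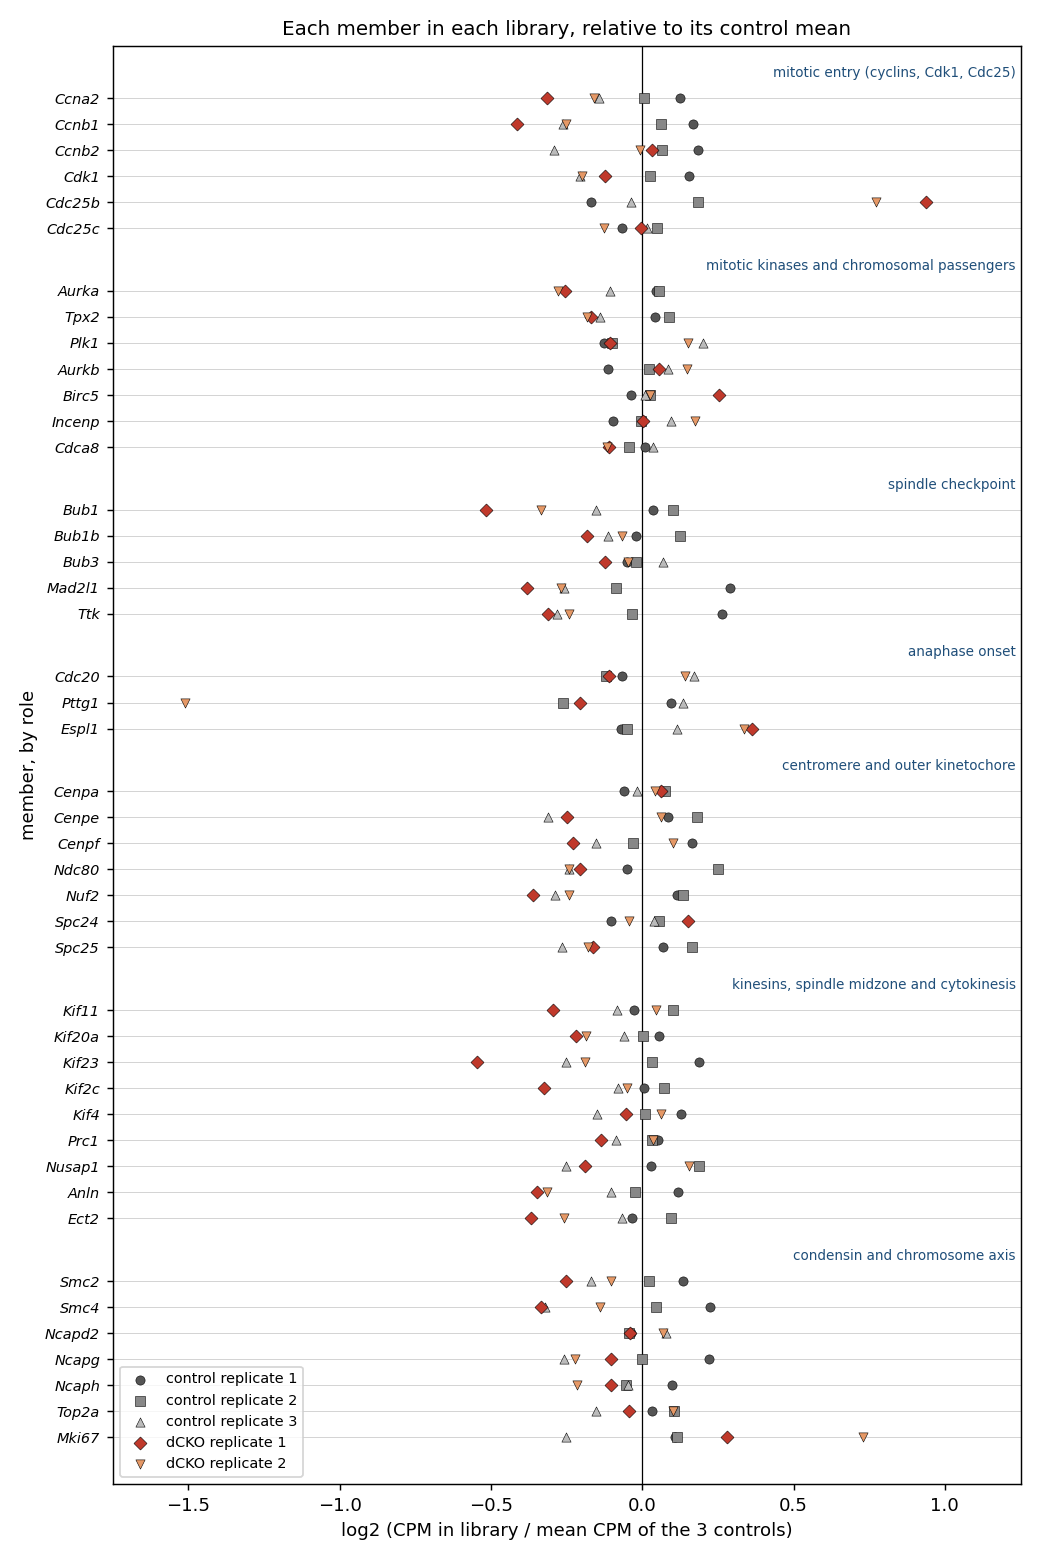
Log2 ratio of the CPM in each of the 5 libraries to the mean of the 3 controls (x axis) for each of the 44 genes, grouped by role (y axis); each symbol is 1 library. Control replicate 3 sits to the left of the other controls in 29 of the 44 rows, and the dCKO symbols lie apart to the right for Cdc25b.

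Among the genes of mitotic entry, Cdc25b was called. Cdc25b encodes a phosphatase that starts the activation of Cdk1 at the centrosome. It measured 44.8, 57.2 and 49.0 CPM in control replicates 1, 2 and 3 and 96.4 and 86.1 CPM in dCKO replicates 1 and 2. Both dCKO libraries were well above the highest control. Cdc25b rose 1.81-fold, or 0.86 on the log2 scale (SE 0.13, 95% interval 0.58 to 1.13, edgeR adjusted p = 2.1e-04). It passed in all 15 alternative analyses, with log2 fold changes from 0.57 to 0.96 and adjusted p-values up to 0.0102. Its exons overlap those of Spef1 on the opposite strand, and the sources used here do not say whether counting used strand. Spef1 measured 8.15 to 10.8 CPM in control and 8.12 to 8.50 CPM in dCKO.

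The other Cdc25 genes did not pass. Cdc25c, whose phosphatase also acts on Cdk1, measured 48.7, 52.8 and 51.6 CPM in the controls and 50.9 and 46.8 CPM in dCKO tissue, with overlapping groups. Its log2 fold change was −0.06 (SE 0.13, 95% interval −0.34 to 0.21, edgeR adjusted p = 0.829). The ratio of Cdc25b to Cdc25c counts within a library was 0.919, 1.08 and 0.950 in the controls and 1.89 and 1.84 in dCKO. Cdc25a, the third gene of the family and not a member, measured 242 ± 10.1 CPM (SD, n = 3) and 214 ± 32.0 CPM (SD, n = 2). The kinase genes that oppose Cdc25, Wee1 and Pkmyt1, did not pass either, with log2 fold changes of −0.21 (SE 0.12) and 0.15 (SE 0.17).

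Cdk1 and its cyclins did not pass the test. Cdk1 measured 300.2, 274 and 234 CPM in the controls and 248 and 235 CPM in dCKO tissue, and both dCKO values lay between control replicates 2 and 3. Ccnb1, the main cyclin B, measured 159, 148 and 118 CPM in control and 106 and 119 CPM in dCKO. The groups overlapped at control replicate 3, and its log2 fold change was −0.33 (SE 0.14, 95% interval −0.62 to −0.04, edgeR adjusted p = 0.167). Ccna2, the cyclin of S phase and G2, measured 331, 305 and 275 CPM in control and 244 and 272 CPM in dCKO. Its highest dCKO library lay just below the lowest control, and the log2 fold change was −0.24 (SE 0.12, adjusted p from edgeR 0.265), or −0.15 without dCKO replicate 1. Ccnb2 averaged 123 ± 20.3 CPM over the 3 controls and 124 ± 2.53 CPM over the 2 dCKO libraries (SD).

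**Figure D3:**
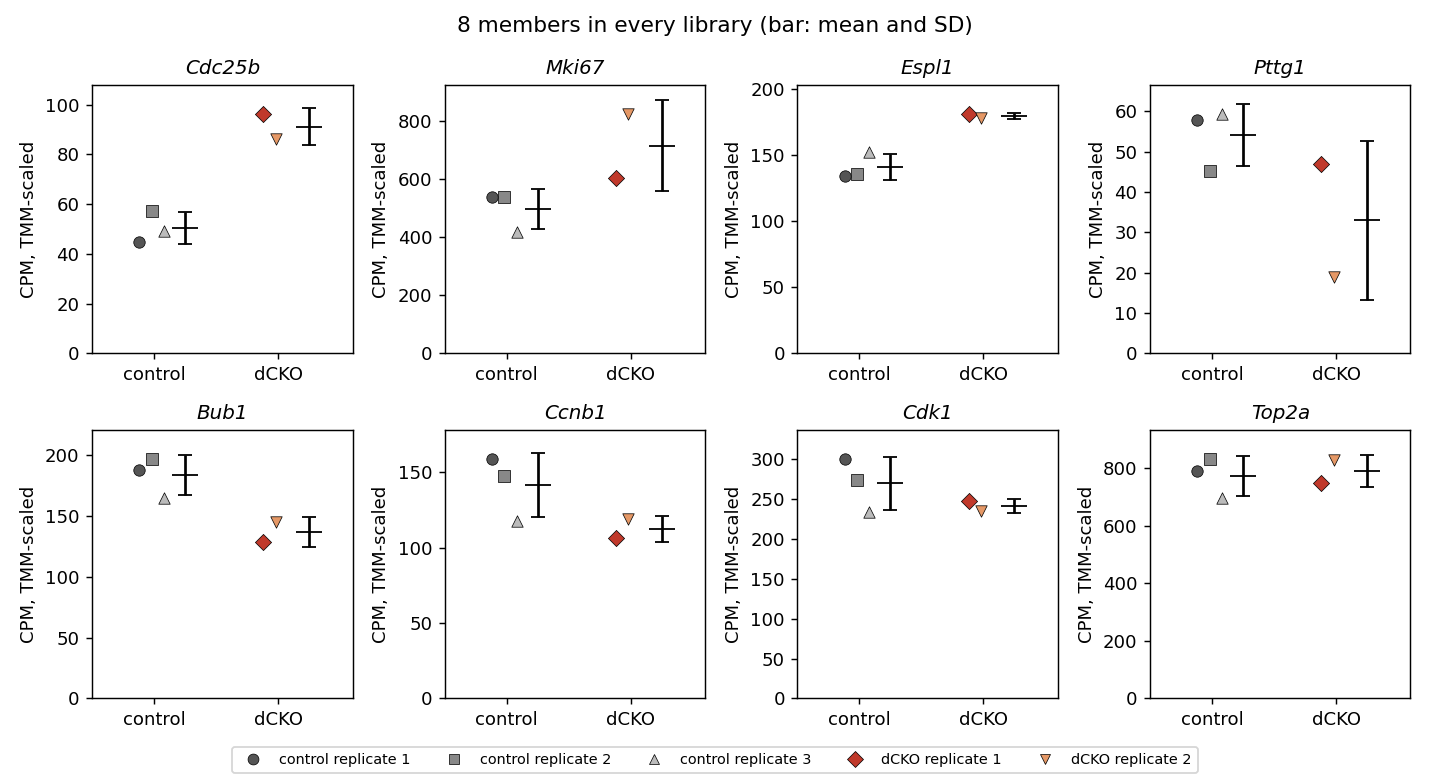
CPM (y axis, from 0) of 8 members in each library of the 2 groups (x axis); symbols are single libraries and bars give the mean and SD. The dCKO symbols for Cdc25b, at 86.1 and 96.4, lie above all 3 controls, and the low mean of Pttg1 in dCKO comes with 1 library at 19.0.

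Of 7 genes of the mitotic kinases and the chromosomal passenger complex, 0 passed by edgeR, DESeq2 or limma-voom, and 1 had an unadjusted p below 0.05 (Aurka, against 21.5% of all genes). Aurka, the kinase of the spindle poles, measured 179, 180 and 161 CPM in control and 145 and 143 CPM in dCKO, without overlap. Its log2 fold change was −0.27 (SE 0.12, edgeR adjusted p = 0.202), and it was called lower once each library's trend with GC content was removed (log2 fold change −0.42, edgeR adjusted p = 0.0186). In that setting 596 of all 12710 genes were called lower, and the median of all genes was −0.095. Tpx2, which activates Aurka on spindle microtubules, measured 334, 345 and 295 CPM in control and 288 and 285 CPM in dCKO, also without overlap (log2 fold change −0.18, SE 0.11). Plk1, a kinase of centrosome maturation and mitotic exit, measured 167, 170 and 209 CPM in control and 169 and 202 CPM in dCKO, and the groups shared the same range. The 4 genes of the passenger complex, which corrects wrong attachments and then moves to the midzone, were Aurkb, Incenp, Birc5 and Cdca8. Their log2 fold changes ran from −0.11 (Cdca8) to 0.14 (Birc5), with standard errors of 0.11 to 0.12.

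The spindle checkpoint was the only role group with every gene below 0. All 5 log2 fold changes were negative (median −0.28), a count that no test was run on, and none passed by edgeR, while 2 had an unadjusted p below 0.05 (Bub1 and Mad2l1, against 21.5% of all genes). Bub1, a kinetochore kinase that recruits other checkpoint proteins, measured 188, 197 and 165 CPM in control and 128 and 145 CPM in dCKO. The 2 dCKO libraries lay below all controls. Its log2 fold change was −0.42 (SE 0.13, 95% interval −0.69 to −0.16, edgeR adjusted p = 0.0526), just outside the threshold. With one library left out in turn it ranged from −0.51 to −0.33. Mad2l1, which forms the inhibitor of Cdc20, measured 138, 106 and 94.6 CPM in control and 87.0 and 93.9 CPM in dCKO. The lowest control and the highest dCKO library were nearly equal, and its log2 fold change was −0.32 (SE 0.15, edgeR adjusted p = 0.202). With one library left out it ranged from −0.15 (without control replicate 1) to −0.45 (without control replicate 3). Bub1b, the most abundant checkpoint gene in CPM, measured 380, 421 and 356 CPM in control and 340 and 368 CPM in dCKO, with overlap (log2 fold change −0.12, SE 0.11). The kinase gene Ttk stood at −0.28 (SE 0.14) and Bub3 at −0.08 (SE 0.12) on the log2 scale.

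None of the 3 genes of anaphase onset passed by edgeR, and 2 of them (Pttg1 and Espl1) had an unadjusted p below 0.05, against 21.5% of all genes. Pttg1 encodes securin, the inhibitor of separase. It measured 57.8, 45.2 and 59.4 CPM in control and 47.0 and 19.0 CPM in dCKO. Replicate 1 of dCKO lay within the controls and replicate 2 far below them. Its log2 fold change was −0.72 (SE 0.25, 95% interval −1.24 to −0.21, edgeR adjusted p = 0.0906), and the size rested on 1 library. Without dCKO replicate 2 it was −0.20 and without dCKO replicate 1 it was −1.499. Espl1, separase itself, measured 134, 136 and 152 CPM in control and 181 and 178 CPM in dCKO, without overlap. Its log2 fold change of 0.35 (SE 0.12) did not pass, with an adjusted p of 0.0888 from edgeR. It stood at 0.063 once the GC trend was removed, where the median of all genes was −0.095. Cdc20, the activator of the anaphase-promoting complex, measured 176, 169 and 207 CPM in control and 171 and 203 CPM in dCKO, and its log2 fold change was 0.02 (SE 0.13, 95% interval −0.25 to 0.29).

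In the centromere and outer kinetochore, 0 of 7 genes passed by edgeR, DESeq2 or limma-voom, the groups overlapped for all 7 (37.6% of all genes had no overlap), and 1 gene (Nuf2) had an unadjusted p below 0.05, against 21.5% of all genes. Nuf2 measured 120, 122 and 90.7 CPM in control and 86.3 and 93.8 CPM in dCKO, with dCKO replicate 2 above control replicate 3. Cenpa, the histone variant that marks centromeres, measured 119, 130 and 122 CPM in control and 129 and 127 CPM in dCKO (log2 fold change 0.05, SE 0.12). The 4 subunits of the Ndc80 complex, the main microtubule anchor, had log2 fold changes of −0.23 (Ndc80), −0.30 (Nuf2), 0.06 (Spc24) and −0.17 (Spc25), with standard errors of 0.12 to 0.14. Cenpe, a kinesin that brings chromosomes to the spindle equator, and Cenpf, a large protein of the outer corona, stood at −0.08 (SE 0.15) and −0.05 (SE 0.13) on the log2 scale. Cenpf was the most abundant of the 7 in CPM, with 241, 211 and 194 CPM in control and 184 and 231 CPM in dCKO. On a scale of CPM per kilobase of transcript, the Ndc80 subunits were ordered in the controls as Spc24 (75.1 ± 4.46), Spc25 (67.5 ± 10.1), Nuf2 (46.1 ± 7.25) and Ndc80 (30.9 ± 5.37; SD, n = 3 for each). Spc24 and Spc25 lay within their spread of each other. The order in dCKO was the same, with 78.1 ± 7.45, 60.01 ± 0.519, 37.4 ± 2.20 and 26.5 ± 0.469 CPM per kilobase (SD, n = 2).

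Of the 9 genes of kinesins, the spindle midzone and cytokinesis, 0 passed by edgeR, DESeq2 or limma-voom, and 8 had negative log2 fold changes (median −0.18). Without adjustment, 3 had a p below 0.05, all with negative values, against 9.65% of all genes lower at that level. These were Anln, which encodes the ring scaffold anillin, Ect2, the exchange factor that activates RhoA at the equator, and Kif23, a motor of the spindle midzone. Anln measured 138, 125 and 118 CPM in control and 99.9 and 102 CPM in dCKO (log2 fold change −0.33, SE 0.12, edgeR adjusted p = 0.12). Ect2 measured 117, 128 and 115 CPM in control and 93.2 and 100.4 CPM in dCKO (log2 fold change −0.31, SE 0.12, edgeR adjusted p = 0.138). For both, the dCKO libraries lay below every control. Kif23 measured 165, 148 and 121 CPM in control and 99.0 and 127 CPM in dCKO, where dCKO replicate 2 was above control replicate 3 (log2 fold change −0.36, SE 0.15, adjusted p from edgeR 0.162). Its value was −0.18 without dCKO replicate 1 and −0.54 without dCKO replicate 2.

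The other motors differed less. Kif20a, the most abundant gene of the group in CPM, measured 388, 374 and 358 CPM in control and 321 and 329 CPM in dCKO, without overlap (log2 fold change −0.20, SE 0.11). Kif11, the motor that separates the spindle poles, stood at −0.11 (SE 0.13), Kif2c, a microtubule depolymerase, at −0.18 (SE 0.13) and the chromokinesin gene Kif4 at 0.01 (SE 0.12). The microtubule bundlers Prc1 and Nusap1 stood at −0.05 (SE 0.12) and −0.01 (SE 0.14).

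Among the 7 genes of condensin and the chromosome axis, Mki67 was called. It encodes Ki-67, a protein that coats mitotic chromosomes and is used as a marker of cycling cells. Mki67 measured 537, 538 and 418 CPM in control and 604 and 824 CPM in dCKO. Both dCKO libraries were above the controls, dCKO replicate 1 by little. It rose 1.44-fold, or 0.52 on the log2 scale (SE 0.14, 95% interval 0.24 to 0.81, edgeR adjusted p = 0.0242). The size rested on dCKO replicate 2. Without that library the log2 fold change was 0.28 and the adjusted p 0.348. The call was also lost without control replicate 1 (0.0617), without control replicate 3 (0.057) and with scaling by library totals alone (0.0593).

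The remaining genes of condensin and the chromosome axis did not pass. Top2a, topoisomerase II alpha, measured 792, 833 and 697 CPM in control and 750 and 830 CPM in dCKO, and its log2 fold change was 0.03 (SE 0.11, 95% interval −0.20 to 0.26). Mki67 counts were 0.678, 0.646 and 0.599 times those of Top2a in the controls and 0.805 and 0.993 times in dCKO. Ncapd2, a regulatory subunit of condensin I, was the most abundant member in CPM, and its exons overlap Gm28967 and Scarna10 on the same strand. It measured 799, 796 and 866 CPM in control and 798 and 861 CPM in dCKO, with the groups sharing one range (95% interval −0.20 to 0.23 on the log2 scale). The other condensin subunits Smc2, Smc4, Ncapg and Ncaph had log2 fold changes of −0.18, −0.23, −0.16 and −0.16, with standard errors of 0.12 to 0.14. Per kilobase of transcript, Ncapd2 was also the highest of the 5 condensin genes in the controls, at 177 ± 8.52 CPM, followed by Smc4 at 69.4 ± 12.9, Ncaph at 56.1 ± 3.40, Smc2 at 42.0 ± 4.42 and Ncapg at 32.6 ± 5.38 CPM (SD, n = 3). Smc4 and Ncaph were not separated by their spread.

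**Figure D4:**
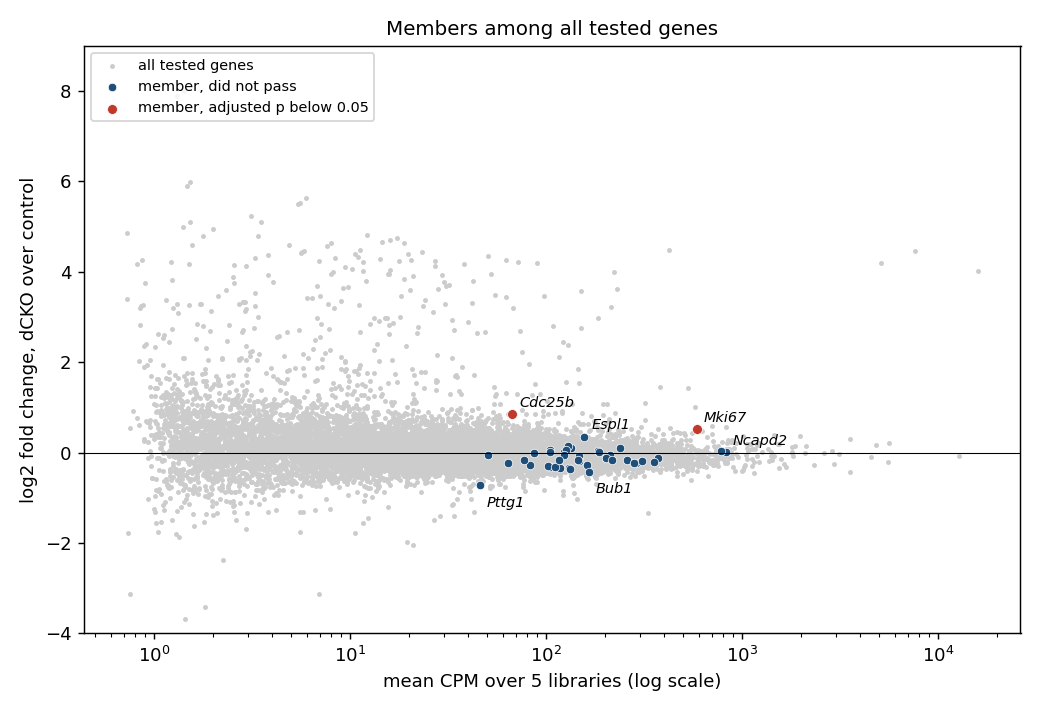
Log2 fold change of dCKO over control (y axis) against mean CPM over 5 libraries (x axis, log scale) for all 12710 tested genes in grey and the 44 members in color. The members lie in the narrow band near 0, with a median of −0.12, with Cdc25b and Mki67 above it and Pttg1, which did not pass, below it at −0.72.

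Genes of the same processes outside the 44 gave a similar picture. Of 156 tested genes in 9 further lists, 7 were higher and 2 lower, against 5.0% and 1.42% of all genes. All 23 genes of the replication fork, 13 of cohesin and 3 of condensin II did not pass by edgeR (median log2 fold changes −0.11, −0.18 and 0.073). In the anaphase-promoting complex, 1 of 16 was higher (Anapc11, a catalytic subunit, log2 fold change 0.504, SE 0.13, edgeR adjusted p = 0.0188; list median −0.19). Another list held the inner kinetochore, the network that joins it to Ndc80, and associated factors such as the Ska genes. Of its 26 genes, 1 was lower (Ska2, log2 fold change −0.52, SE 0.14, edgeR adjusted p = 0.0256, list median −0.12). Of 39 other spindle and cytokinesis genes, 1 was higher, Cit, which encodes the citron kinase of the midbody. Cit rose from 42.9 ± 8.63 CPM (SD, n = 3) to 74.5 ± 4.39 CPM (SD, n = 2), or 0.80 on the log2 scale (SE 0.15, edgeR adjusted p = 0.00163; list median −0.13).

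The other calls were among regulators of the cell cycle. Of 23 transcriptional regulators, 3 were higher (median −0.04). E2f2, an E2F factor, measured 30.5, 31.4 and 30.4 CPM in control and 61.4 and 56.1 CPM in dCKO (log2 fold change 0.93, SE 0.14, edgeR adjusted p = 1.14e-04), and the pocket protein genes Rb1 and Rbl2 rose by 0.97 (SE 0.27) and 1.01 (SE 0.23). Foxm1 and Mybl2, which encode activators of mitotic genes, did not pass, with log2 fold changes of 0.02 (SE 0.12) and 0.28 (SE 0.14). Of 8 G1 cyclins and kinases, Ccnd3 rose from 167 ± 25.7 to 307 ± 1.45 CPM (SD, n = 3 and 2) and Ccne2 fell by 0.56 on the log2 scale (SE 0.15, edgeR adjusted p = 0.031; list median −0.22). Of 5 tested CDK inhibitors, Cdkn1a, which encodes p21, rose by 0.75 on the log2 scale (SE 0.18, edgeR adjusted p = 0.0127, list median 0.59). Its level was 16.3 ± 1.94 CPM in control (SD, n = 3) and 27.3 ± 0.41 CPM in dCKO (SD, n = 2). Cdkn1c, the most abundant of the list in CPM, averaged 372 CPM in control and 364 CPM in dCKO (log2 fold change −0.03, SE 0.11). The list summed to 417 to 469 CPM in control and 438 to 465 CPM in dCKO, so the groups overlapped. Cdkn2a had 0 counts in every library, and Cdkn2b was too low to test. These dCKO libraries are those with 55972 to 80223 CPM of erythroid markers, whose part in these values was not tested. Cit, E2f2 and Ccnd3 passed in all 15 alternatives, though at the lowest they came down to 0.57, 0.57 and 0.58 on the log2 scale. The lowest values of E2f2 and Ccnd3 came with the GC trend removed (for E2f2 together with the replicate block). Anapc11, Ska2, Ccne2 and Cdkn1a lost their calls without control replicate 1, control replicate 2 or either dCKO library (edgeR adjusted p up to 0.193, 0.202, 0.273 and 0.093), Rbl2 without either dCKO library (up to 0.0949), and Rb1 with library totals only and without control replicate 1, control replicate 3 or dCKO replicate 2 (up to 0.496). The log2 fold change of Rb1 ran from 0.49 without dCKO replicate 2 to 1.34 without dCKO replicate 1. Once the GC trend was removed, Anapc11, Ccne2 and Cdkn1a also did not pass.

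In the authors' deposited table, 1 of the 44 members had an adjusted p below 0.05, against 2.88% of the 18610 genes it lists. That member was Cdc25b, with a fold change of 1.84 and an adjusted p of 3.26e-06 in the authors' deposited table. Mki67 stood there at a fold change of 1.46 with an adjusted p of 0.351 (the authors' deposited table), and 29 of the 44 log2 fold changes in the authors' deposited table were negative.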

How the data were processed

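Raw read counts per gene symbol, as deposited, covered 3 control and 2 dCKO libraries. The authors' comparison was deposited as a second table. Per the file headers, its columns are a mean normalized signal for each group, a fold change (ratio) and its log2 value, and a p-value with and without adjustment. The submitters' processing notes name HTSeq 0.5.4p3, DESeq 1.16.0 and the build mm9. Aligner, annotation and use of strand were not given in the sources used here. Columns headed wild type were taken as control, on the replicate number.

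Counts were filtered with filterByExpr (minimum count 10, minimum total 15), TMM-scaled and tested with the quasi-likelihood F test of edgeR 4.0.16 (R 4.3.3, two-sided) over all 12710 remaining genes, with no covariate. SE is the absolute log2 fold change over the root of F, and 95% intervals use the fit's degrees of freedom. DESeq2 1.42.0 and limma-voom (limma 3.58.1) were alternatives, as were other scalings, filters, left-out libraries, the replicate number as a block, and removal of each library's GC trend (loess span 0.3, GENCODE M21, GC for 99.3% of tested genes). Transcript length per gene is that of the longest principal GENCODE M21 transcript matched to RefSeq, and the transcripts in use in this tissue may differ. The members and lists were chosen with earlier results of these data known. Genes were named by a rule: members called, and in each role group the most abundant in CPM, the largest change and the smallest p. Other members, and Cdc25a, Wee1, Pkmyt1, Foxm1, Mybl2, Rbl1, Cdkn1c and Spef1, were added after their values were seen. The rule also took up to 3 genes of smallest p per further list, of which only those called are printed, and 3 embryonic globins, which stand in the erythroid sum. No pair of same-group libraries agreed within sampling noise (chi-square per gene 4.43 to 14.1), so none was treated as a repeat deposit of another; this does not show that they are separate embryos. Exons of 11 members overlap a gene on the opposite strand in GENCODE M21, and 3 (Ccnb1, Ccnb2, Kif4) have named pseudogenes. On the same strand, exons of Ncapd2 overlap Gm28967 and Scarna10, and those of Top2a overlap Gm23451. The counts of all these members could include reads of other genes.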

Additional observations from a re-analysis of the deposited data

How the results depend on the processing

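Across all 44 genes, the median log2 fold change kept its sign in each of the 15 alternatives, from −0.19 to −0.074. The median of all genes moved from −0.00062 to −0.076 with library totals only, where the members stood at −0.19, and to −0.095 with the GC trend removed, where they stood at −0.15 and so lay nearer to all genes than in the main comparison. The ratio of summed CPM lay between 0.919 and 1.01 in the 8 alternatives that rescale or leave out libraries. With 5 libraries, the strain of the dCKO embryos and their blood content cannot be told apart from genotype, and the cause of the shifts below was not tested. Members called higher numbered 1 to 2 with single libraries left out and 1 with library totals only. Members called lower numbered 0 to 7 with single libraries left out, 1 with library totals only (Bub1), with DESeq2 (Bub1) and with the GC trend removed (Aurka), and 2 with limma-voom and without a filter on low counts (Bub1 and Pttg1). Over all genes, 636 were higher and 180 lower (77.9% higher), against 53.1% higher with library totals only and 43.9% with the GC trend removed. The number of lower genes was 469 with library totals only, 305 without a filter and 596 with the GC trend removed, and 39 to 687 with single libraries left out, where higher genes numbered 403 to 950.

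With the replicate number as a block, 3 members were higher and 11 lower (1200 and 921 of all genes). With block and GC correction together, 7 members and 1070 genes were lower. Control replicate 3 is the only library numbered 3, so its block term absorbs it. The block fits therefore rest on replicates 1 and 2 of each group. The 11 lower members with the block alone include all 7 called lower without control replicate 3. Deviations of same-numbered libraries correlated at 0.075 (number 1) and −0.0061 (number 2). With 2 dCKO libraries, the deviations of one mirror those of the other, so these values cannot decide whether the numbers pair the libraries.

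Members near 0 that did not pass changed sign. With library totals only, where the median of all genes was −0.076 and the sign changes follow from that common shift, log2 fold changes were −0.065 (Ccnb2), −0.044 (Plk1), −0.050 (Cdc20), −0.023 (Cenpa), −0.021 (Spc24), −0.070 (Kif4), −0.058 (Ncapd2) and −0.045 (Top2a). The median of all genes was −0.095 with the GC trend removed and −0.085 with block and GC correction. With the GC trend removed, log2 fold changes were −0.059 (Ccnb2), 0.017 (Cdc25c), −0.25 (Plk1), −0.089 (Aurkb), −0.16 (Incenp), −0.25 (Cdc20), 0.022 (Cenpe), 0.044 (Cenpf), −0.15 (Spc24), −0.030 (Kif4), 0.048 (Prc1), 0.11 (Nusap1), −0.22 (Ncapd2) and 0.12 (Ncapg). With the replicate block they were −0.11 (Ccnb2), −0.063 (Kif4) and −0.041 (Top2a). With block and GC correction they were −0.17 (Ccnb2), 0.074 (Cdc25c), −0.20 (Plk1), −0.063 (Aurkb), −0.15 (Incenp), −0.21 (Cdc20), 0.020 (Cenpf), −0.15 (Spc24), 0.010 (Kif11), −0.081 (Kif4), 0.058 (Prc1), 0.053 (Nusap1), −0.21 (Ncapd2) and 0.12 (Ncapg). Nusap1 stood at 0.00030 without a filter and 0.015 with the stricter one. With single libraries left out, ranges that crossed 0 were −0.12 to 0.12 (Ccnb2), −0.11 to 0.00076 (Cdc25c), −0.10 to 0.16 (Plk1), −0.10 to 0.15 (Cdc20), −0.25 to 0.073 (Cenpe), −0.23 to 0.11 (Cenpf), −0.034 to 0.15 (Spc24), −0.29 to 0.056 (Kif11), −0.071 to 0.078 (Kif4), −0.13 to 0.047 (Prc1), −0.19 to 0.16 (Nusap1), −0.036 to 0.081 (Ncapd2) and −0.048 to 0.11 (Top2a).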
